A study of Mus musculus with 19 samples.

Results

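The 6 genes studied here, all linked to the follicular helper T (Tfh) fate, were Ascl2, Cebpa, Tox2, Tox, Maf and Pou2af1, and they were followed across 6 groups of sorted mouse CD4+ T cells on 19 Affymetrix arrays. They were taken by name, with earlier results of these data known. All 6 were among the 9930 genes that passed a filter on low values. Of the probe sets annotated with a gene's symbol alone, the one highest on average across the 19 arrays stood for the gene. All values are log2 GCRMA expression values per probe set, a scale whose low end lies near 2.

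Tfh cells enter B cell follicles through the chemokine receptor CXCR5 and give germinal centre B cells the cytokines IL-21 and IL-4. BCL6 is the repressor that Tfh cells need. ASCL2, TOX2 and MAF are known to act with or ahead of it on genes such as Cxcr5, Pdcd1 and Il21. POU2AF1 is a coactivator of octamer-binding factors, and CEBPA is best known for driving myeloid development.

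The cells were of strain C57BL/6J. Per protocol text that the labels repeat for all samples, OT-II CD4+ T cells carrying a Bcl6yfp/+ reporter allele were transferred into mice, which were then immunized under the skin with NP-OVA in CFA. That text may not describe the naive cells or the Bcl6+/+ cells. From lymph nodes came CXCR5hi PD-1hi YFP-BCL6+ cells (YFP-positive, n = 4, replicate 4 at day 10 and 1 to 3 at day 7) and CXCR5hi PD-1hi YFP-BCL6- cells (YFP-negative, n = 4, replicates 1 and 4 at day 10, 2 and 3 at day 7). CXCR5hi PD-1hi cells were also compared by genotype, Bcl6yfp/+ (n = 3, all day 7) and Bcl6+/+ (n = 3, replicates 1 and 2 at day 10, 3 at day 7). CXCR5lo PD-1lo cells (n = 3, all day 7) came from immunized mice too, outside that gate. Naive CD4+ T cells (n = 2, CD44lo CD62Lhi) came from the spleen of unimmunized mice. The reporter and receptor transgene limit the YFP groups to cells of 1 antigen specificity with 1 altered Bcl6 allele. Whether replicates were separate animals is not stated in the labels, so the p-values reflect only how these samples spread, and that spread may be technical. The number of arrays limits the precision. In sorted bulk samples, fewer cells of a type and less RNA per cell cannot be told apart.

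The arrays fell into 7 sets with nearly the same distribution of values. Replicates 1, 2 and 3 of both YFP groups and of CXCR5lo PD-1lo cells each formed a set by number, and another set held replicate 4 of both YFP groups with naive replicate 1. Bcl6yfp/+ replicate 1 shared a set with naive replicate 2, replicates 2 and 3 of both genotypes formed another, and Bcl6+/+ replicate 1 stood alone. T cell identity genes reached log2 8 on every array (9 of 9), whereas Cd79a, Ms4a1, Csf1r, Cd14, Cd8a and Ncr1 stayed between 1.96 and 3.10 on all 19. Other markers of non-T cells, Jchain, Lyz2 and Sdc1, were not low on every array. They were highest on YFP-negative replicate 1 (12.42, 10.98 and 6.54), and Sdc1 also read 5.33 on Bcl6+/+ replicate 1. YFP-negative replicate 1 stood apart in the myeloid list, with a summed level of 12.98 against 6.41 to 8.38 on the other 18 arrays. The Y-linked Eif2s3y marked the day 10 arrays of both YFP groups and the X-linked Xist their day 7 arrays, while every array of both Bcl6 genotypes carried Eif2s3y. All CXCR5lo PD-1lo arrays carried Xist (13.01 to 13.46), as did naive replicate 1 (13.4), whereas naive replicate 2 carried Eif2s3y (12.89). Comparisons with these groups thus also differ in sex-linked transcripts, whose part was not tested.

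**Figure D1:**
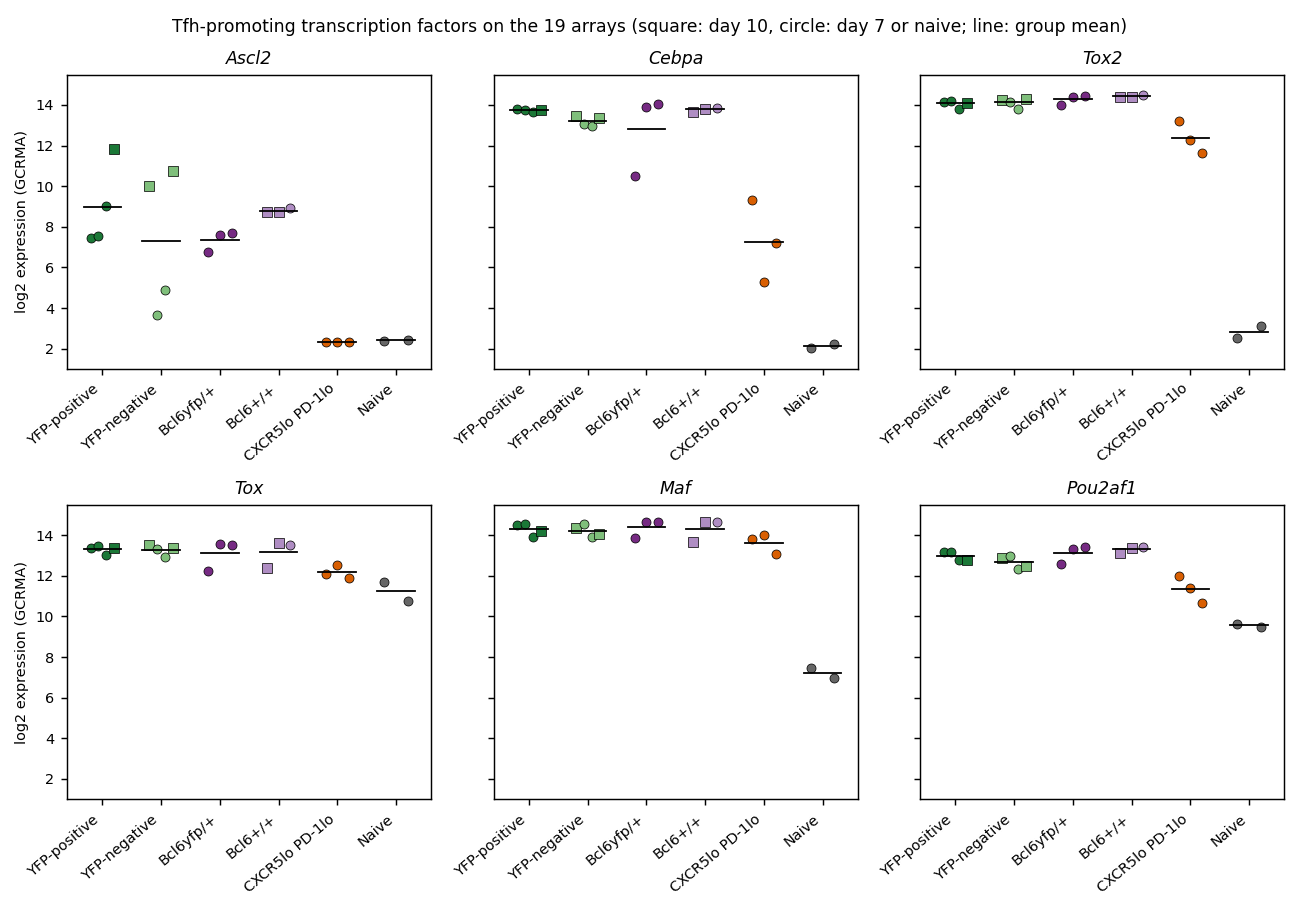
Log2 expression of each gene (vertical axis) on each of the 19 arrays by group (horizontal axis); squares are day 10 arrays, circles day 7 or naive arrays, lines group means. Ascl2 is near 2 in CXCR5lo PD-1lo and naive cells and spreads from 3.64 to 11.83 over the CXCR5hi PD-1hi arrays, whereas Tox2 spans 13.81 to 14.48 there.

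The first question was which of the 6 genes separate CXCR5hi PD-1hi cells from CXCR5lo PD-1lo cells. Ascl2, Cebpa, Tox2 and Pou2af1 were called higher in YFP-positive cells, at an adjusted p under 0.05 in limma over all genes. The share of all genes called in this comparison was 10.6% (5.18% higher). The same 4 were called higher in YFP-negative cells, where the share of all genes called was 6.53% (3.13% higher). Both comparisons share the 3 CXCR5lo PD-1lo arrays. Because the 6 genes were chosen with earlier results known, the shares of all genes are given for description only. Ascl2 passed the filter only through CXCR5hi PD-1hi arrays, so its separation from CXCR5lo PD-1lo and naive cells is in part fixed by that selection. The arrays of the groups did not overlap for 5 of the 6 genes in each comparison, against 22.9% of all genes for YFP-positive and 18.7% for YFP-negative cells, and Maf was the exception. The median difference of the 6 genes was 1.66 in YFP-positive cells and 1.53 in YFP-negative cells, against medians of -0.07 and -0.09 over all genes.

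Ascl2 encodes a basic helix-loop-helix factor known in mouse T cells to raise Cxcr5 and to lower Ccr7, and lies at chr7:142966822-142969264 (GRCm38.p6). It read 7.46, 7.56, 9.05 and 11.83 in YFP-positive cells and 9.99, 3.64, 4.90 and 10.77 in YFP-negative cells, against 2.32, 2.31 and 2.35 in CXCR5lo PD-1lo cells. Every YFP-positive and YFP-negative array lay above every CXCR5lo PD-1lo array, and the YFP-negative arrays fell into a low and a high pair. The difference was 6.65 on the log2 scale in YFP-positive cells (SE 1.37, limma adjusted p = 0.00404) and 4.999 in YFP-negative cells (SE 1.37, limma adjusted p = 0.0366). A second Ascl2 probe set, 1460514_s_at, differed by 4.61 (limma adjusted p = 0.115) and 3.99 (limma adjusted p = 0.26), neither called. The files give no detection calls, and with CXCR5lo PD-1lo cells at the low end of the scale these differences depend on where that end lies. The YFP-negative call was lost without either day 10 array (YFP-negative replicate 1 or 4) and without any 1 of the 3 CXCR5lo PD-1lo arrays (differences of 3.85 to 6.23 over the 7 such fits, adjusted p 0.00497 to 0.119). It was also lost with day in the fit (3.17, limma adjusted p = 0.0718), and with no filter, the mean of all probe sets, quantile normalization or the 2 groups alone (limma adjusted p 0.0572 to 0.17). The day 10 YFP-negative arrays also carried Eif2s3y, whereas all CXCR5lo PD-1lo arrays carried Xist. The part of sex-linked transcripts in this call was not tested.

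Cebpa, which encodes a basic leucine zipper factor, lies at chr7:35119293-35121928. It read 13.78, 13.74, 13.66 and 13.75 in YFP-positive cells and 13.44, 13.09, 12.98 and 13.35 in YFP-negative cells, against 9.31, 5.29 and 7.20 in CXCR5lo PD-1lo cells. The YFP arrays lay close together, while the CXCR5lo PD-1lo arrays spread widely, all below them. The difference was 6.46 in YFP-positive cells (SE 0.78, limma adjusted p = 2.94e-05) and 5.94 in YFP-negative cells (SE 0.78, limma adjusted p = 8.87e-05). Because CEBPA is a myeloid factor, the myeloid list stands beside it: 0 of its 18 genes reached log2 8 on any YFP-positive array, where its summed level was 7.32 to 8.38, against 6.68 to 7.90 in CXCR5lo PD-1lo cells. In YFP-negative replicate 1, 3 of the 18 did and Lyz2, which encodes lysozyme, read 10.98. Cebpa read 13.44 there and 12.98 to 13.35 on the other YFP-negative arrays, and the part of myeloid transcripts in its level was not tested.

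Pou2af1 lies at chr9:51213690-51240079. It read 13.17, 13.20, 12.78 and 12.80 in YFP-positive cells and 12.87, 12.97, 12.35 and 12.48 in YFP-negative cells, against 11.99, 11.42 and 10.67 in CXCR5lo PD-1lo cells. The difference was 1.63 in YFP-positive cells, a fold of 3.09 (SE 0.29, limma adjusted p = 0.00108), and 1.31 in YFP-negative cells (SE 0.29, limma adjusted p = 0.00878). No array overlapped. The YFP-negative call was lost without CXCR5lo PD-1lo replicate 3 (0.96, limma adjusted p = 0.0679) and with the 2 groups alone (limma adjusted p = 0.07).

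The promoter windows of Ascl2, Cebpa and Pou2af1 are shown because these genes were called higher in both YFP groups and have 1 window each in the table, where Tox2, also called, has 5. Each is the 250 bases upstream of the annotated start, from RefSeq on GRCm38.p6, written 5′ to 3′ on the gene's strand. They lie at chr7:142969265-142969514 (minus strand), chr7:35119043-35119292 (plus strand) and chr9:51213440-51213689 (plus strand). Capitals mark matches on either strand to CANNTG (the E-box, bound by helix-loop-helix factors such as ASCL2), ATGCAAAT (the octamer, where POU2AF1 acts), TTGCNNAA (C/EBP half-sites) or TGCTGAC (a MAF half-site).
Ascl2: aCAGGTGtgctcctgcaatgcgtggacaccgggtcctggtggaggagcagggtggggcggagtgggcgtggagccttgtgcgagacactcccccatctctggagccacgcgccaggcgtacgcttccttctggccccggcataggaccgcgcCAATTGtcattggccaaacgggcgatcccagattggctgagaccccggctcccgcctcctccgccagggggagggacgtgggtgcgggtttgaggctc
Cebpa: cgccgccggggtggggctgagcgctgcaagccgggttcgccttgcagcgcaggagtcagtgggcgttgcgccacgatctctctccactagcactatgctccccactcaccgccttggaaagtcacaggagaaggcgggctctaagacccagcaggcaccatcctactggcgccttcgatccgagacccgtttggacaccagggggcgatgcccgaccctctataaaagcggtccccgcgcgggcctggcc
Pou2af1: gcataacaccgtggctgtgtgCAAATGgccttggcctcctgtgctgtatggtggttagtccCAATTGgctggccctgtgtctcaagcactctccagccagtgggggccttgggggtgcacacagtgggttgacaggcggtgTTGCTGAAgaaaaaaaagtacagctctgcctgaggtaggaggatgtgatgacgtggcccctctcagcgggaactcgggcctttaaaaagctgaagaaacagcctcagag
The Ascl2 window held 2 E-boxes, the Pou2af1 window 2 E-boxes and 1 C/EBP match, and the Cebpa window none of the 4 motifs. Of 32851 mouse windows of the same length, 66.2% held an E-box, 1.6% an octamer, 9.56% a C/EBP match and 3.81% a MAF half-site. A match describes letters only.

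Tox2, an HMG-box gene at chr2:163203058-163324172 known to open chromatin at Tfh genes, read 14.17, 14.21, 13.81 and 14.12 in YFP-positive cells and 14.23, 14.16, 13.81 and 14.30 in YFP-negative cells, against 13.23, 12.29 and 11.61 in CXCR5lo PD-1lo cells. Every CXCR5lo PD-1lo array lay below both other groups. The difference was 1.70 in YFP-positive cells, a fold of 3.25 (SE 0.29, limma adjusted p = 0.000856), and 1.75 in YFP-negative cells (SE 0.29, limma adjusted p = 0.000885).

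Tox, its paralog needed for CD4+ T cell development in the thymus, lies at chr4:6686353-6991557. It read 13.36, 13.45, 13.05 and 13.39 in YFP-positive cells and 13.54, 13.33, 12.92 and 13.40 in YFP-negative cells, against 12.09, 12.56 and 11.90 in CXCR5lo PD-1lo cells. The groups did not overlap, but the differences of 1.13 (SE 0.36, limma adjusted p = 0.0563) and 1.11 (SE 0.36, limma adjusted p = 0.0843) were not called. With the normalization set as a block they were 1.10 (limma adjusted p = 8.89e-05) and 1.08 (limma adjusted p = 0.000136). Both other Tox probe sets gave a called difference for YFP-positive cells, of 2.19 for 1425483_at (limma adjusted p = 0.015) and 1.95 for 1442039_at (limma adjusted p = 0.00191).

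Maf, at chr8:115703253-115706894, encodes a leucine zipper factor that drives Il21 and Il4 in helper T cells. It read 14.49, 14.55, 13.91 and 14.22 in YFP-positive cells and 14.36, 14.56, 13.93 and 14.06 in YFP-negative cells, against 13.81, 14.02 and 13.06 in CXCR5lo PD-1lo cells. The groups overlapped, and the differences of 0.66 (SE 0.31, limma adjusted p = 0.23) and 0.60 (SE 0.31, limma adjusted p = 0.389) were not called. Within the set of each replicate number, YFP-positive cells lay above CXCR5lo PD-1lo cells by 0.68, 0.52 and 0.85, and a fit blocked on the set gave 0.70 (limma adjusted p = 0.000193). The probe sets of Maf disagreed in size: 1447849_s_at differed by 2.32 (limma adjusted p = 1.84e-06) and 1435828_at by 2.14 (limma adjusted p = 0.000603), both called, whereas 1437473_at differed by 1.83 (limma adjusted p = 0.052) and 1444073_at by 0.82 (limma adjusted p = 0.454).

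**Figure D2:**
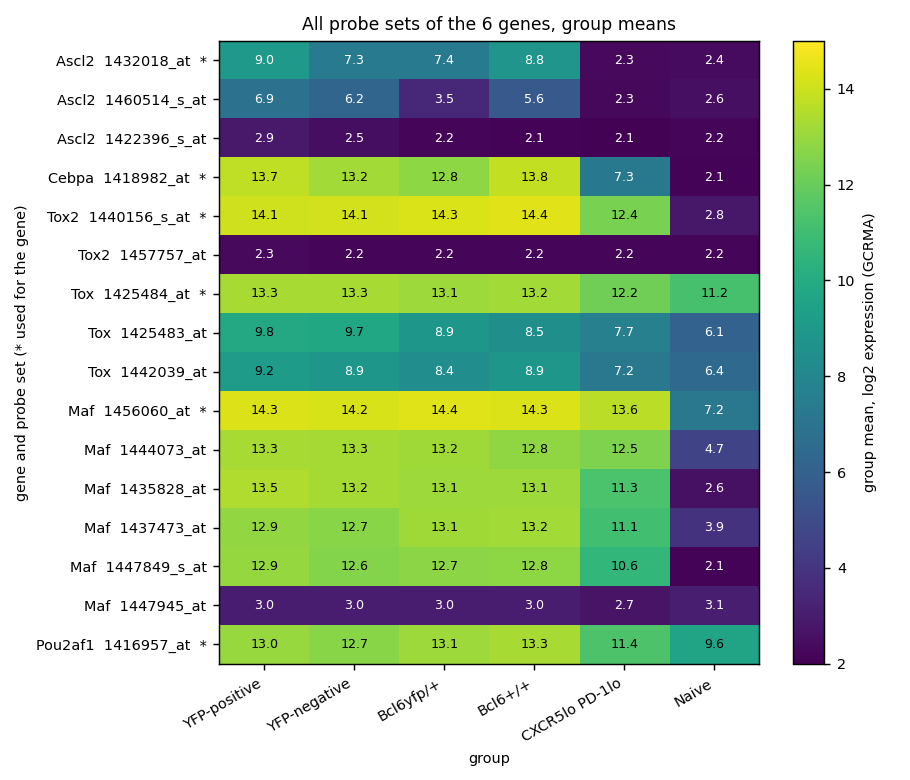
Group mean of log2 expression (colour and printed value) for each probe set of the 6 genes (rows; an asterisk marks the one used) in each group (columns). Of the 5 Maf probe sets above the low end, the highest shows the least separation, 14.3 in YFP-positive and 13.6 in CXCR5lo PD-1lo cells, and 1 probe set each of Ascl2, Tox2 and Maf stays near the low end in every group mean.

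Some values moved with these differences. CXCR5lo PD-1lo replicate 1 had the highest Cxcr5 (10.89), Pdcd1 (11.99) and Il21 (10.85) of its group, and also its highest Cebpa, Tox2 and Pou2af1. Tox (12.56) and Maf (14.02) were highest in replicate 2 instead, and Ascl2 stayed between 2.31 and 2.35. Replicate 1 also had the highest Jchain (10.53), Lyz2 (6.76) and cell cycle mean (10.66) of the group. In the list of CD8 T and NK cell genes, 0 of 6 reached log2 8 on any CXCR5hi PD-1hi array, and 1 of 6 on each CXCR5lo PD-1lo and naive array. Its summed level was 6.65 to 7.28 in YFP-positive and 6.66 to 7.57 in YFP-negative cells, against 10.41 to 11.46 in CXCR5lo PD-1lo cells, while Cd8a and Ncr1 were near 2 in all. The B cell and plasma cell list summed to 11.82 to 12.04 in YFP-positive and 11.74 to 13.34 in YFP-negative cells, against 12.18 to 12.70 in CXCR5lo PD-1lo cells. Jchain, a plasma cell gene in that list, read 8.45, 2.22, 3.06 and 2.21 in YFP-positive cells and 12.42, 2.51, 3.06 and 2.20 in YFP-negative cells, against 10.53, 7.91 and 7.72 in CXCR5lo PD-1lo cells. Cd79b, a B cell receptor gene, was the only gene called of the 5 on that list that passed the filter. It read 2.22 to 2.81 in YFP-positive and 2.21 to 2.81 in YFP-negative cells, against 5.26 to 5.36 in CXCR5lo PD-1lo cells (differences of -2.91 and -2.90, limma adjusted p 2.09e-08 and 2.51e-08).

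Of 5 listed markers of naive T cells, 4 passed the filter (Klf2, Il7r, S1pr1 and Ccr7, the last also among the reported target genes), and all 4 were called lower by limma in both YFP groups, where the median difference was -6.16 for YFP-positive cells and -3.46 for the YFP-negative ones. Of all 9930 genes, 535 were called lower in YFP-positive than in CXCR5lo PD-1lo cells, where the all-gene median was -0.065. For YFP-negative cells these values were 337 and -0.085. The mean level of the 4 naive markers was 4.69 to 6.93 on YFP-positive arrays and 7.98 to 9.45 on YFP-negative arrays. It was 12.09 to 12.38 in CXCR5lo PD-1lo cells. Naive cells stood at 12.90 and 12.15, and 0 of the 4 were called in CXCR5lo PD-1lo against naive cells (median -0.29). Of 20 listed cell cycle genes, 19 passed. In YFP-positive against CXCR5lo PD-1lo cells 4 were called higher (Cenpe, Kif20a, Tyms and Cdk1) and none lower, with a median of 2.67, where 5.18% of all genes were called higher. For each of those 4 the arrays of the groups overlapped. In YFP-negative cells none was called (median -0.06). Their mean level was 9.14 to 12.09 in YFP-positive and 6.25 to 10.00 in YFP-negative cells, against 10.66, 8.03 and 7.15 in CXCR5lo PD-1lo cells. The part of all these marker values in the results was not tested.

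**Figure D3:**
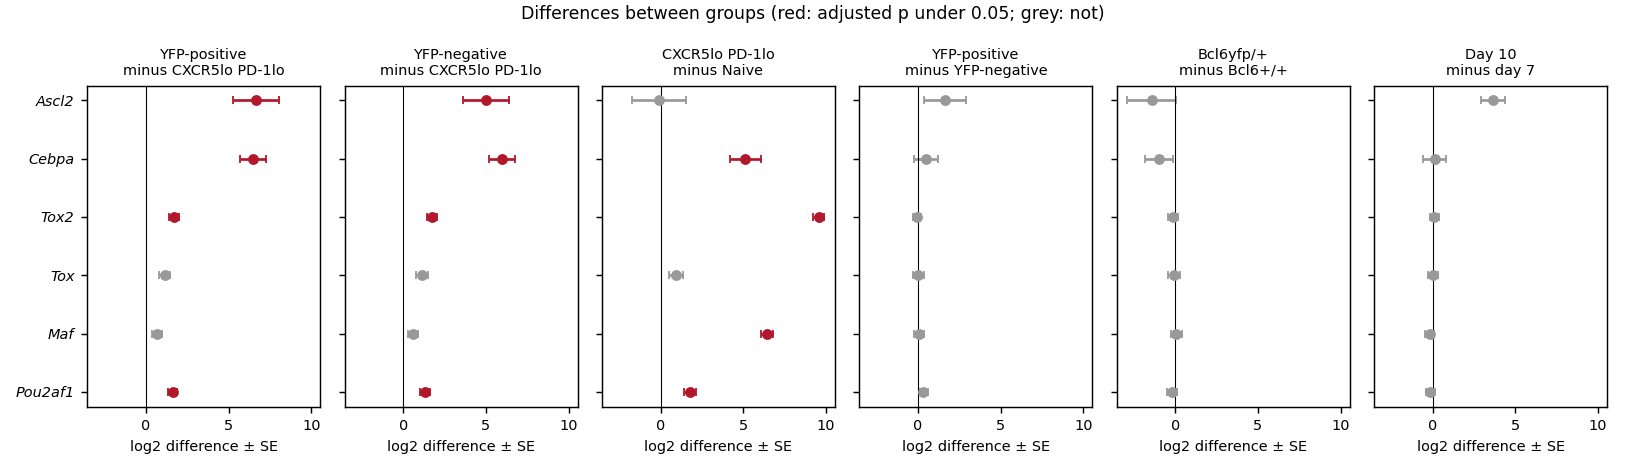
Log2 difference with its standard error (horizontal axis) for each gene (rows) in 6 comparisons (panels); red marks an adjusted p under 0.05. Ascl2 and Cebpa differ most from CXCR5lo PD-1lo cells, Tox2 and Maf are already high in CXCR5lo PD-1lo against naive cells, and no gene is red between the YFP groups, the genotypes or the days.

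Against naive cells, all 6 genes were called higher in every CXCR5hi PD-1hi group. The shares of all genes called were 28.8% in YFP-positive, 21.1% in YFP-negative, 20.5% in Bcl6yfp/+ and 35.9% in Bcl6+/+ cells (22.4%, 16.5%, 15.4% and 31.5% higher). These comparisons share the same 2 naive arrays, which read 2.38 and 2.42 for Ascl2, 2.02 and 2.25 for Cebpa, 2.53 and 3.11 for Tox2, 11.72 and 10.76 for Tox, 7.45 and 6.98 for Maf, and 9.64 and 9.50 for Pou2af1. Ascl2, Cebpa and Tox2 were thus near the low end in naive cells, whereas Tox, Maf and Pou2af1 were not. In YFP-positive cells the differences were 3.42 for Pou2af1 (SE 0.32, limma adjusted p = 6.92e-07), 7.08 for Maf (SE 0.35, limma adjusted p = 3.3e-10) and 2.08 for Tox (SE 0.41, limma adjusted p = 0.00115). The differences from the low end were 6.57 for Ascl2 (limma adjusted p = 0.0047), 11.60 for Cebpa and 11.25 for Tox2. Within the set that holds naive replicate 1, the YFP-positive array was higher by 1.68 for Tox, 6.77 for Maf and 3.16 for Pou2af1.

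The other CXCR5hi PD-1hi groups were set against the same naive arrays. The YFP-negative, Bcl6yfp/+ and Bcl6+/+ differences were 7.02, 7.17 and 7.11 for Maf and 3.10, 3.54 and 3.73 for Pou2af1. For Ascl2 they were 4.92 (limma adjusted p = 0.0332), 4.95 (limma adjusted p = 0.0421) and 6.38 (limma adjusted p = 0.00757), the highest adjusted p of the 6 genes in each. On the second Ascl2 probe set, 1460514_s_at, none of these was called (3.695, 0.93 and 3.06, limma adjusted p 0.183, 0.782 and 0.244). In YFP-positive cells that probe set differed by 4.31 from naive cells (limma adjusted p = 0.101), also not called. Without naive replicate 2, Tox was no longer called in YFP-negative (1.58, limma adjusted p = 0.0589), Bcl6yfp/+ (1.40, limma adjusted p = 0.101) and Bcl6+/+ cells (1.46, limma adjusted p = 0.0663), and Ascl2 was lost there too (adjusted p 0.167, 0.159 and 0.0507). Ascl2 was also lost without naive replicate 1 in YFP-negative and Bcl6yfp/+ cells, without YFP-negative replicate 1 or 4, and without Bcl6yfp/+ replicate 2 or 3.

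The direction of calls over all genes depended on the scaling in the comparisons with naive cells. As deposited, 2222 genes were higher and 641 lower in YFP-positive cells, and after quantile normalization 1746 and 2042. In YFP-negative cells 1637 and 461 became 1264 and 1533, in Bcl6yfp/+ cells 1534 and 502 became 1455 and 1087, and in Bcl6+/+ cells 3124 and 442 became 1740 and 1097. For CXCR5lo PD-1lo cells 1028 and 157 became 635 and 736. The median of all genes lay between 0.37 and 0.64 as deposited and between -0.08 and 0.09 after it. Every called difference of the 6 genes exceeded those medians.

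CXCR5lo PD-1lo cells already differed from naive cells in 4 of the 6 genes, all higher, in a comparison that called 11.9% of all genes (10.4% higher). Maf was higher by 6.42 (SE 0.37, limma adjusted p = 4.35e-09), Tox2 by 9.55 (SE 0.35, limma adjusted p = 1.51e-11), Cebpa by 5.13 (SE 0.93, limma adjusted p = 0.0015) and Pou2af1 by 1.79 (SE 0.34, limma adjusted p = 0.0023). Tox differed by 0.95 (SE 0.43, limma adjusted p = 0.153) and Ascl2 by -0.08 (SE 1.64, limma adjusted p = 0.98), neither called. Both Ascl2 groups sat at the low end of the scale. No set holds both groups, and they are linked only through the YFP arrays of their sets. Blocked on the set, the same 4 were called (Maf 6.02, Tox2 9.99, Cebpa 5.35 and Pou2af1 1.47, limma adjusted p 2.79e-08 to 0.00745). When the fit held these 2 groups alone, Cebpa (limma adjusted p = 0.0682) and Pou2af1 (limma adjusted p = 0.08) were not called.

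The order of the groups by mean level also separated the genes. For Tox2, Maf, Cebpa and Pou2af1 the order ended with CXCR5lo PD-1lo and then naive cells, and those groups did not overlap, as for 54.2% of all genes. Tox had the same order, with the first replicates of Bcl6yfp/+ (12.25) and Bcl6+/+ (12.38) inside the CXCR5lo PD-1lo range. For Ascl2 the CXCR5lo PD-1lo and naive means were 2.33 and 2.40, values at the low end that have no order. Among the 4 CXCR5hi PD-1hi groups, neighbours in the order overlapped for every gene except Cebpa, YFP-positive over YFP-negative, and Ascl2, Bcl6+/+ over Bcl6yfp/+.

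The YFP-positive and YFP-negative cells, split by the BCL6 reporter within the CXCR5hi PD-1hi gate, differed in 0 of the 6 genes by limma, where 0.121% of all genes were called (12 genes, and 786 at an unadjusted p under 0.05). Ascl2 was higher by 1.65 in YFP-positive cells (SE 1.27, limma adjusted p = 1). Cebpa was higher by 0.52 (SE 0.72, limma adjusted p = 1), and it was the 1 gene of the 6 whose arrays did not overlap, as for 3.89% of all genes. Pou2af1 differed by 0.32 (SE 0.27), Maf by 0.06 (SE 0.29), Tox by 0.02 (SE 0.33) and Tox2 by -0.05 (SE 0.27).

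Arrays of the same replicate number, which share a set, were then set against each other. YFP-positive arrays 1 to 4 exceeded the YFP-negative arrays of the same number by 0.34, 0.66, 0.68 and 0.40 for Cebpa and by 0.30, 0.23, 0.43 and 0.32 for Pou2af1. For Ascl2 the differences were -2.52, 3.92, 4.15 and 1.06. The negative one is the pair in which the YFP-positive array is from day 7 and the YFP-negative array from day 10, and in the 3 pairs of 1 day YFP-positive was higher. The arrays of that pair also differ in Xist (13.77 against 1.97), Lyz2 (6.73 against 10.98) and Jchain (8.45 against 12.42). The part of day, sex-linked, myeloid and plasma cell transcripts in that value was not tested. With the day 10 arrays of both YFP groups left out, an alternative chosen after the values were seen, Ascl2 was higher by 3.75 in YFP-positive cells (SE 0.46, limma adjusted p = 0.00344). That also left out every YFP array that carried Eif2s3y. The mean level of 19 cell cycle genes was 12.09, 11.13, 12.09 and 9.14 on the YFP-positive arrays, against 7.69, 9.48, 10.00 and 6.25 on the YFP-negative ones, and its part in these differences was not tested.

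**Figure D4:**
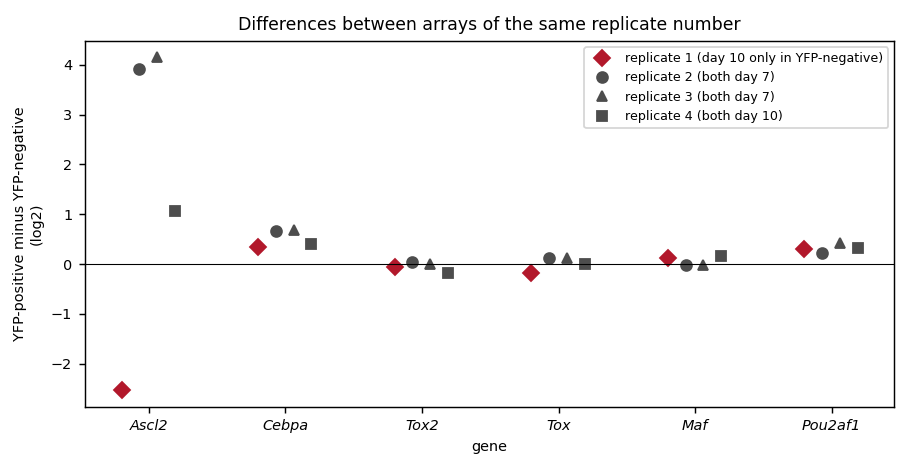
Log2 difference, YFP-positive minus YFP-negative (vertical axis), for each gene (horizontal axis) between arrays of the same replicate number; red diamonds are the pair whose arrays differ in day and in sex-linked transcripts. Cebpa and Pou2af1 are above 0 in 4 of 4 pairs, and Ascl2 is at -2.52 in the red pair and 1.06 to 4.15 in the others. No share of all genes above 0 in 4 of 4 pairs is given, so these signs are for description only.

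Between the genotypes, Bcl6yfp/+ and Bcl6+/+ cells differed in 0 of the 6 genes by limma, where 0% of all genes were called (287 at an unadjusted p under 0.05). Ascl2 read 6.77, 7.60 and 7.69 in Bcl6yfp/+ cells, against 8.72, 8.71 and 8.93 in Bcl6+/+ cells. These arrays did not overlap, as for 4.58% of all genes, and the difference was -1.43 (SE 1.47, limma adjusted p = 0.868). Its SE pools the spread of all 6 groups, and the Ascl2 SD was 0.51 for Bcl6yfp/+ and 0.12 for Bcl6+/+ arrays. That SD was larger for YFP-positive (2.04) and YFP-negative arrays (3.58), so this p-value depends on groups outside the genotype comparison. Within the set of replicates 2 and 3 the difference was -1.17. Day 7 holds all Bcl6yfp/+ arrays but 1 of 3 Bcl6+/+ arrays, and that day 7 Bcl6+/+ array (8.93) lay above every Bcl6yfp/+ array. With 1 day term shared by all groups in the fit, the Ascl2 difference was 1.002 (limma adjusted p = 0.679), but the day effect differed between groups and was -0.21 in Bcl6+/+ cells. Cebpa read 10.49, 13.89 and 14.03 in Bcl6yfp/+ cells, against 13.66, 13.82 and 13.87 in Bcl6+/+ cells, so that 1 array alone was low. Its difference was -0.98 (SE 0.84, limma adjusted p = 0.868), and 0.12 within the set of replicates 2 and 3. Tox, Tox2, Maf and Pou2af1 differed by -0.07, -0.13, 0.06 and -0.19, against a median of -0.26 over all genes, and by -0.03 to 0.00 within that set.

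The day after immunization could be compared in the 3 groups that hold both days. No gene of the 6 was called for day 10 against day 7 by limma, where 0.232% of all genes were (23 genes, and 1011 at an unadjusted p under 0.05). The Ascl2 difference was 3.65 (SE 0.73, limma adjusted p = 0.0516), and those of the other genes lay between -0.18 and 0.12. On the second Ascl2 probe set, 1460514_s_at, the difference was 4.65 and was called (SE 0.78, limma adjusted p = 0.04). Whether the day effect differed between the groups was tested as an interaction, which called 0.111% of all genes and Ascl2 among the 6 (limma adjusted p = 0.0236), with an adjusted p of 1 for each of the others.

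Ascl2 at day 10 read 11.83 in YFP-positive cells, against 7.46, 7.56 and 9.05 at day 7. In YFP-negative cells it read 9.99 and 10.77 at day 10, against 3.64 and 4.90 at day 7. In Bcl6+/+ cells it read 8.72 and 8.71 at day 10, against 8.93 at day 7. The days thus did not overlap in either YFP group, with the higher values at day 10, and lay close together in Bcl6+/+ cells. The differences were 3.81 (SE 0.61, limma adjusted p = 0.00833), 6.11 (SE 0.53, limma adjusted p = 5.56e-05) and -0.21 (SE 0.65, limma adjusted p = 1). Day 10 of YFP-positive and day 7 of Bcl6+/+ cells were 1 array each, so these p-values and that of the interaction assume that such an array varies like those of the other groups. The second Ascl2 probe set, 1460514_s_at, read 10.83 in YFP-positive cells at day 10, against 4.13, 5.14 and 7.37 at day 7. In YFP-negative cells it read 8.89 and 9.71 at day 10, against 2.43 and 3.96 at day 7. In Bcl6+/+ cells it read 7.96 and 4.44 at day 10, against 4.45 at day 7, so that the day 10 arrays there disagreed. The third Ascl2 probe set, which did not pass the filter, read 5.11 and 3.58 on replicate 4 of YFP-positive and YFP-negative cells, both day 10, but 2.10 on the day 10 YFP-negative replicate 1 and 2.09 to 2.21 on the other 16 arrays.

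Other values moved with the day in the YFP arrays. Xist read 1.97 to 2.08 on their day 10 arrays, against 13.46 to 14.07 on their day 7 arrays, and Eif2s3y 13.21 to 13.28 against 2.25 to 2.40, so day and sex-linked transcripts cannot be told apart there. All Bcl6+/+ arrays carried Eif2s3y (13.52 to 13.57). The cell cycle mean was 6.25 to 9.14 on the day 10 YFP arrays, against 9.48 to 12.09 on the day 7 ones, and its part in the Ascl2 result was not tested.

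**Figure D5:**
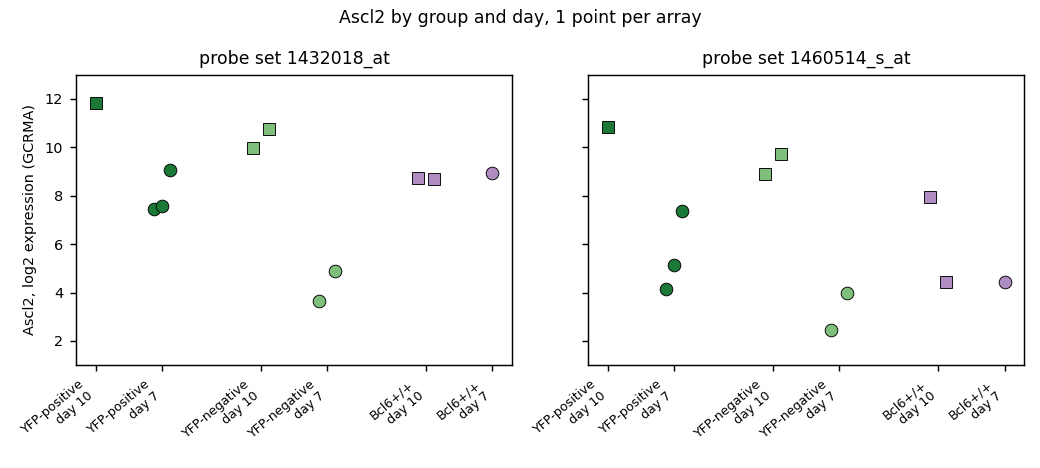
Log2 expression of Ascl2 (vertical axis) in the 3 groups that hold both days (horizontal axis, day 10 left of day 7), 1 point per array, for the probe set used (left) and a second one (right). In the YFP groups every day 10 array is above every day 7 array of its group on both probe sets, and the Bcl6+/+ arrays lie between 8.71 and 8.93 on the first.

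Over the 14 CXCR5hi PD-1hi arrays the genes varied unequally. Ascl2 had its lowest, median and highest values at 3.64, 8.20 and 11.83, and Cebpa at 10.49, 13.70 and 14.03. Tox spanned 1.37, Pou2af1 1.07, Maf 0.98 and Tox2 0.66. Correlations with other genes are descriptive, since the arrays share groups, sets and days. Over all 19 arrays, the 3 genes most like Ascl2 were Dnase1l3 (Pearson r = 0.98), Cxxc5 (0.97) and Spock2 (0.96), and over the 14 CXCR5hi PD-1hi arrays their r was 0.94, 0.96 and 0.90. Dnase1l3, a DNase gene, averaged 8.56 in YFP-positive cells and 2.28 in CXCR5lo PD-1lo cells. Cebpa went with Ptpn11 (0.99), Dhrs3 (0.99) and Stk39 (0.985). Tox2 went with Il1r1, Frmd4b and Lag3 (0.99 each), but over the 14 arrays these had r of 0.34, -0.12 and 0.62. Maf went with Gcnt1, Il1r1 and Cd44 (0.995, 0.992 and 0.99), and Tox with Nsmaf (0.96), Oaz2 and Fuca2 (0.95 each). Pou2af1 went with Otud7b, Nr2f6 and Smim3 (0.98 each). Among the 6 genes the closest pair over 19 arrays was Maf and Tox2 (0.99), whose r was 0.57 over the 14 arrays.

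Of relatives in the same factor families, 8 of 15 listed genes passed the filter, and 1 of the 8 was called in YFP-positive against CXCR5lo PD-1lo cells, near the 10.6% of all genes called there. That was Mafg, a small MAF protein gene, which averaged 10.98 ± 0.20 in YFP-positive cells (SD, n = 4) and 7.95 ± 0.50 in CXCR5lo PD-1lo cells (SD, n = 3). It was higher by 3.03 in YFP-positive cells (SE 0.27, limma adjusted p = 9.84e-07) and by 2.60 in YFP-negative cells (SE 0.27, limma adjusted p = 7.03e-06). Its relative Mafk differed by -0.69 (limma adjusted p = 0.0846), and Cebpb by 0.49 and Cebpg by 0.30, none of them called. Tox3 lay between 2.14 and 2.41 on all arrays. The list's median was 0.11.

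Of 8 listed partners, 6 passed the filter. Id2, which encodes an inhibitor that binds the E proteins with which ASCL2 pairs, was lower by 1.79 in YFP-positive than in CXCR5lo PD-1lo cells (log2 difference -1.79, SE 0.35, limma adjusted p = 0.00281). It averaged 11.61 ± 0.59 in YFP-positive cells (SD, n = 4) and 13.40 ± 0.42 in CXCR5lo PD-1lo cells (SD, n = 3), without overlap. In YFP-negative cells it differed by -1.21 (limma adjusted p = 0.0523), not called, and YFP-positive minus YFP-negative was -0.58 (limma adjusted p = 0.814). The E protein genes Tcf3, Tcf4 and Tcf12 differed by -0.59, 0.25 and 0.35 in YFP-positive cells, and Pou2f2, an octamer factor to which POU2AF1 binds, by -0.09, none of them called. Against naive cells Pou2f2 was higher by 2.12 in YFP-positive cells (limma adjusted p = 0.0134) and by 2.21 in CXCR5lo PD-1lo cells (limma adjusted p = 0.031). Id2 differed from naive cells by -0.27 in YFP-positive cells (limma adjusted p = 0.647), not called. It was higher by 1.52 in CXCR5lo PD-1lo cells (limma adjusted p = 0.0281).

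Of 11 reported target genes of these factors in helper T cells, 9 passed the filter. In YFP-positive against CXCR5lo PD-1lo cells 5 of the 9 were called higher and 2 lower, against 10.6% of all genes called (5.18% higher), with a median of 1.58 against -0.07 over all genes. Il4 (9.18), Il21 (3.94) and Cxcr5 (3.79) were higher and the homing receptor Ccr7 (-5.68) lower. Cxcr5 and Pdcd1 were sort markers, and Bcl6, also called higher (1.58), is the gene whose reporter set the YFP-positive gate. The change of Cxcr5, Pdcd1 and Bcl6 is thus no independent evidence. In YFP-negative cells the count was again 5 higher and 2 lower, against 6.53% of all genes called (3.13% higher). The median there was 1.22, against -0.09 over all genes. Of 16 Tfh surface and signalling genes, 15 passed and 4 of the 15 were called higher in YFP-positive cells, against the same 5.18% of all genes: Sostdc1 (9.25), S1pr2 (2.90), Tnfsf8 (2.46) and P2rx7 (1.34). None was called lower, and the median was 0.57.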

How the data were processed

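Biotin-labelled cDNA of sorted CD4+ T cells was hybridised to Affymetrix arrays, 1 per sample. The authors deposited log2 expression values per probe set made with GCRMA, per the submitters' processing notes. Its settings and version were not given in the sources used. Of 45101 probe sets, 34945 carried 1 symbol in GEO's platform annotation, 932 several and 9160 none, and 64 were controls. RefSeq's table for GRCm38.p6 matched 34741 by Entrez identifier and updated 0 symbols.

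Probe sets at log2 4 or more on at least 2 arrays were kept (22327), and each gene took the one with the highest mean, giving 9930 genes. Group means were fitted to all 19 arrays with limma 3.58.1 (lmFit, contrasts.fit, eBayes) in R 4.3.3, with Benjamini-Hochberg adjustment over all genes of a comparison, or over 18626 single-symbol probe sets for the probe sets not used. Fold-change errors are standard errors, which in the fit to all 19 arrays pool the spread of all 6 groups. Day was a term added to the groups. Scripts were tested on simulated data.

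Sets are arrays whose sorted values differed by under 0.06 on average (largest difference within a set 0.0483, smallest between sets 0.0666). Arrays of the same replicate number deviated together, with correlations of 0.27 to 0.87 in the YFP and CXCR5lo PD-1lo groups. Those arrays also share a set, so the correlations cannot show whether the samples were paired. The labels do not say what a number marks, and the YFP-positive and YFP-negative arrays numbered 1 differ in day and in Xist (13.77 against 1.97). Between the genotypes the like-numbered correlations were 0.57 to 0.64, but replicates 2 and 3, which share a set, also correlated across numbers (0.56 and 0.43), so the numbers did not separate those 2 replicates.

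The 6 genes, the 11 gene lists and the tests were chosen with earlier results of these data known. Beside the 6 genes, the text names the 3 genes with the highest correlation with each, family and partner genes, and per list at most the 4 called, non-overlapping genes with the largest difference between YFP-positive and CXCR5lo PD-1lo cells. Pdcd1, Bcl6, the cell cycle genes and the marker genes were named after their values were seen. Alternatives were the filter, the mean of all probe sets, quantile normalization, blocks for replicate and set, day, the 2 compared groups alone and leaving out each array.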

Additional observations from a re-analysis of the deposited data

Results flagged for a closer look

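The day effect of Ascl2 differed between the groups. The interaction of day with group in limma gave an adjusted p of 0.0236. The day 10 minus day 7 difference was 3.81 in YFP-positive cells (1 array against 3), 6.11 in YFP-negative cells (2 against 2) and -0.21 in Bcl6+/+ cells (2 against 1), and an arm of 1 array takes its spread from the other groups. Day coincides with sex-linked transcripts on the YFP arrays, whereas all Bcl6+/+ arrays carry Y-linked ones. No array stood out from its group in the 12 Dixon tests, made only on the YFP groups, which hold 4 arrays each. Groups of 2 or 3 arrays were not tested. Cebpa in Bcl6yfp/+ cells, at 10.49 against 13.89 and 14.03, was thus outside these tests.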

How the results depend on the processing

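The number of the 6 genes called kept within 1.5 times its value in every comparison under the alternatives run, with these exceptions. For day 10 against day 7 it was 1 (Ascl2) with the stricter filter, with the mean of all probe sets and with quantile normalization, and 0 to 1 with an array left out. For CXCR5lo PD-1lo against naive cells it was 2 with the 2 groups alone. For YFP-negative against CXCR5lo PD-1lo cells it was 2 to 4 with an array left out, the 2 being without CXCR5lo PD-1lo replicate 3. For YFP-positive against YFP-negative cells it was 1 with day 7 arrays alone, an alternative chosen after seeing the data.

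Signs changed only in differences that were not called. YFP-positive against YFP-negative, Tox2 was 0.047 with the mean of probe sets and 0.077 with day 7 arrays alone, and with an array left out Tox was -0.11 to 0.10, Tox2 -0.15 to 0.038 and Maf -0.037 to 0.19. Between the genotypes, quantile normalization gave 0.15 for Tox, 0.064 for Tox2 and 0.027 for Pou2af1, the set block and leaving out both first replicates gave 0.12 for Cebpa, and day in the fit gave 1.002 for Ascl2 and -0.058 for Maf. With an array left out there, Tox was -0.47 to 0.37, Tox2 -0.22 to 0.003, Maf -0.26 to 0.32, Cebpa -1.59 to 0.18 and Pou2af1 -0.33 to 0.07. For day, Maf was 0.039 with the mean of probe sets, Pou2af1 0.028 after quantile normalization, Tox2 -0.30 blocked on replicate and -0.27 blocked on set, Cebpa -0.57 blocked on set, and Tox -0.089 to 0.24 with an array left out. CXCR5lo PD-1lo against naive, Ascl2 was 4.15 with the set block (limma adjusted p = 0.175), a path through other groups.

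The replicate block changed no call of the 6 genes in the comparisons it could be run in, and Ascl2 in YFP-positive against CXCR5lo PD-1lo cells was then 5.60 (limma adjusted p = 0.00253). Comparisons with naive cells were not blocked, since 1 naive title has no number. Tox and Maf in both YFP groups against CXCR5lo PD-1lo cells were called with the mean of probe sets, quantile normalization and the set block, and Tox also with the 2 groups alone. Ascl2 in YFP-negative, Bcl6yfp/+ or Bcl6+/+ against naive cells was lost under 2 to 4 settings each, with the mean of probe sets in all of them (limma adjusted p 0.104, 0.33 and 0.0861). Counts over all genes moved more: 12 YFP-positive against YFP-negative ran from 2 to 1541 (59 with the replicate block), 1049 YFP-positive against CXCR5lo PD-1lo from 654 to 4439, and 648 YFP-negative against CXCR5lo PD-1lo from 400 to 3026. Between the genotypes 0 ran to 4, and for day 23 ran from 0 to 395. Against naive cells 2863 in YFP-positive ran from 1588 to 4663, 2098 in YFP-negative from 1124 to 4131, 2036 in Bcl6yfp/+ from 1149 to 4900, 3566 in Bcl6+/+ from 1783 to 4863 and 1185 in CXCR5lo PD-1lo from 416 to 2319. The highest counts came with the set block, except for day and for either genotype against naive cells. Of the 3 genes most like each member, 0 were shared over the 14 CXCR5hi PD-1hi arrays except for Ascl2. Groups of 2 to 4 arrays and values at the low end of the scale limit all of these.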

Other observations

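Maff, a small MAF protein gene, followed the normalization sets more closely than the groups. It read 2.26 to 2.56 on all CXCR5lo PD-1lo arrays and arrays of both YFP groups numbered 1 or 2, and 5.10, 5.10 and 7.22 on those numbered 3. It read 8.98 and 8.997 on the first Bcl6yfp/+ and Bcl6+/+ replicates, against 2.33 to 2.36 on the other 4 arrays of these genotypes. The cause was not tested.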
